A study of Mus musculus with 10 samples.

Results

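The genes described here encode the translation initiation factors of the mouse. They were taken from the deposited table by name, as the rows whose symbol begins with Eif and a digit from 1 to 6, leaving out Eif4ebp1, Eif2s3y and pseudogene names. The rule used no measured value and found 58 of the 25965 rows. Of these, 6 rows carry the old Eif2c symbols of the Argonaute genes, which load small RNAs and are not initiation factors, so that 52 rows remained for initiation proper. Tests were restricted to rows with log2 values over 0 in 50% or more of a fit's libraries, and 54 of the 58 rows passed. The remaining 4 rows were Eif4e1b, Eif4e3, Eif2c4 and Eif2c5.

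Initiation is the step of protein synthesis at which the small ribosomal subunit finds the start codon of an mRNA. eIF2 carries the initiator tRNA to the small subunit and is recharged with GTP by eIF2B, and kinases that phosphorylate eIF2 turn this cycle down under stress. eIF4E, eIF4G and eIF4A bind and unwind the capped end of the mRNA, eIF3 bridges mRNA and ribosome, and eIF1, eIF1A, eIF5 and eIF5B govern start codon choice and subunit joining. Naive embryonic stem cells are known for a low rate of translation relative to their differentiated progeny.

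RNA-seq was performed on male C57/Bl6 mouse embryonic stem cell (mESC) lines in 2i medium, a defined medium with inhibitors of MEK and GSK3 and the cytokine LIF that keeps mESCs naive. Under both methods the medium also held antibiotics and an antifungal agent. Among the lines is one from which the Y chromosome was lost while it was derived. From 2 separately derived lines, cells taken at passage 0 (p0) were divided between the culture methods and sampled again after 10 passages (p10) and 20 passages (p20). Under Keniry2022 conditions (the labels' New or Off) cells grew in suspension, at higher density and with more medium, and were passaged every day, whereas Mulas2019 conditions (Old or On) meant growth on gelatin with longer intervals between passages. As a result, p20 Keniry2022 and p10 Mulas2019 were matched in days. There were 10 libraries in 5 groups of 2. No library carries a transgene or drug label. All groups descend from the same 2 derivations under Keniry2022 conditions, so p-values measure the spread between libraries of these lines, and attachment, density, medium and passaging interval cannot be told apart. In bulk RNA, fewer cells of a type and less RNA per cell cannot be told apart either.

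The libraries held 24053996 to 30236823 reads, of which 86.0% to 88.8% lay in features. All 8 mESC markers examined, Pou5f1, Nanog and Esrrb among them, had log2 values above 0 in every library, while this held for 0 of 5 primitive endoderm, 1 of 5 fibroblast, 1 of 5 primed epiblast and 2 of 5 trophectoderm markers. Summed mESC markers lay between 1840 and 1960 RPKM (reads scaled to exon length and to library depth) under Keniry2022 and between 1680 and 1750 under Mulas2019. Summed fibroblast markers were 81.8 to 119 and 55.1 to 95.9 RPKM, summed primed epiblast markers 33.2 to 39.8 and 20.2 to 25, summed trophectoderm markers 22.8 to 27.0 and 27.8 to 34.8, and summed primitive endoderm markers 1.10 to 1.25 and 1.46 to 1.72, and the part of these differences in the results below was not tested. The only fibroblast and primed epiblast markers above 0 in every library were Vim (log2 5.76 to 6.89) and Dnmt3b (4.14 to 5.22). Tfap2c (4.20 to 5.01) was the highest trophectoderm marker. The fibroblast, primed epiblast and trophectoderm sums thus each mostly followed a single gene and do not describe the other markers. Replicate 1 of p0 stood apart. Its log2 difference from replicate 2 had an SD of 0.611 over features, against 0.230 to 0.265 in the other groups, and it was related to exon length, with a Spearman correlation of -0.54 over the 54 tested members. Comparisons that involve p0, or share its estimate of the spread, are therefore given with and without it.

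The members covered a wide range of abundance. On the length-scaled log2 RPKM scale, the highest mean over the 10 libraries was 8.85 for Eif5a, which relieves ribosomes stalled during elongation, followed by 8.40 for Eif3k. Most eIF3 subunits, eIF4B, eIF4H, Eif4g1 and Eif4g2 had means above 6, and the median eIF3 subunit had 7.33. The eIF2 kinases were low, from 1.98 for Eif2ak2, the interferon-induced kinase PKR, to 3.56 for Eif2ak1, the haem-regulated kinase HRI. Among the other cap-binding genes, Eif4e2 had a mean of 4.60, and Eif4e1b and Eif4e3 were near the floor, with 9 to 48 reads for the oocyte-type gene Eif4e1b and 4 to 20 for Eif4e3.

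**Figure D1:**
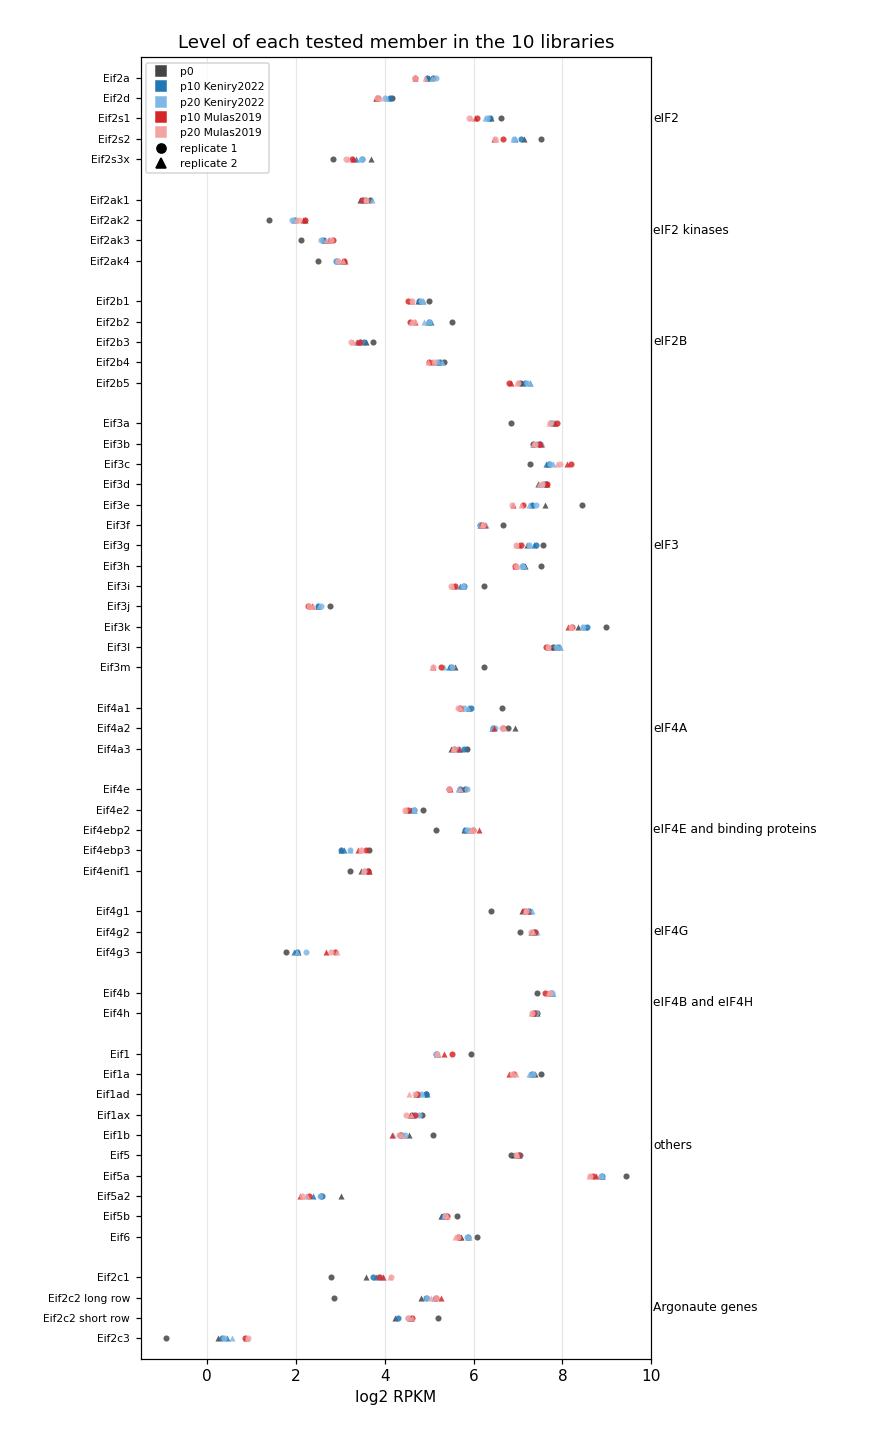
Level of each of the 54 tested rows in the 10 libraries, in log2 RPKM on the horizontal axis, grouped by complex, with colour for the group and shape for the replicate. Eif5a and Eif3k lie highest, the eIF2 kinases and Eif4g3 lie low, and p0 replicate 1 is often the point farthest from the rest.

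The first question was whether the methods differ in these genes after 10 or 20 passages, with 4 libraries per method. Of the 54 tested members, 28 were higher under Keniry2022 (51.9%) and 6 were lower (11.1%) at an adjusted p below 0.05 (limma, Benjamini-Hochberg over 11654 features). Over all features tested, 51.5% were called, 25.9% as higher and 25.5% as lower, so that the called share of the members was not far above the background but its direction was uneven. The median log2 difference was 0.10 over the members and -0.00 over all features. Abundant genes as a whole leaned the same way. Among features whose mean log2 value reached 4, 45.9% were higher and 14.1% lower with a median of 0.10, and the 40 members in that range had 24 higher and 3 lower with a median of 0.17. Among those that reached 6, 59.2% were higher and 9.67% lower with a median of 0.16, and the 21 members there had 12 and 2 with a median of 0.10. Values of the methods did not overlap in 25 members as higher and 5 as lower, against 23.1% and 23.4% of all features.

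The split of calls depended on scaling. Quantile normalisation of the libraries gave 17 members higher and 15 lower, with a background of 23.1% and 22.9%, and voom on recovered reads gave 24 and 11, with a background of 21.7% and 30.1%. The eIF2 genes were called as higher under both, and Eif4g3 and Eif3c were called as lower under both. The pooled difference was also related to exon length, with a Spearman correlation of -0.28 over the 54 members and -0.28 over all features, and the part of length in the differences was not tested.

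**Figure D2:**
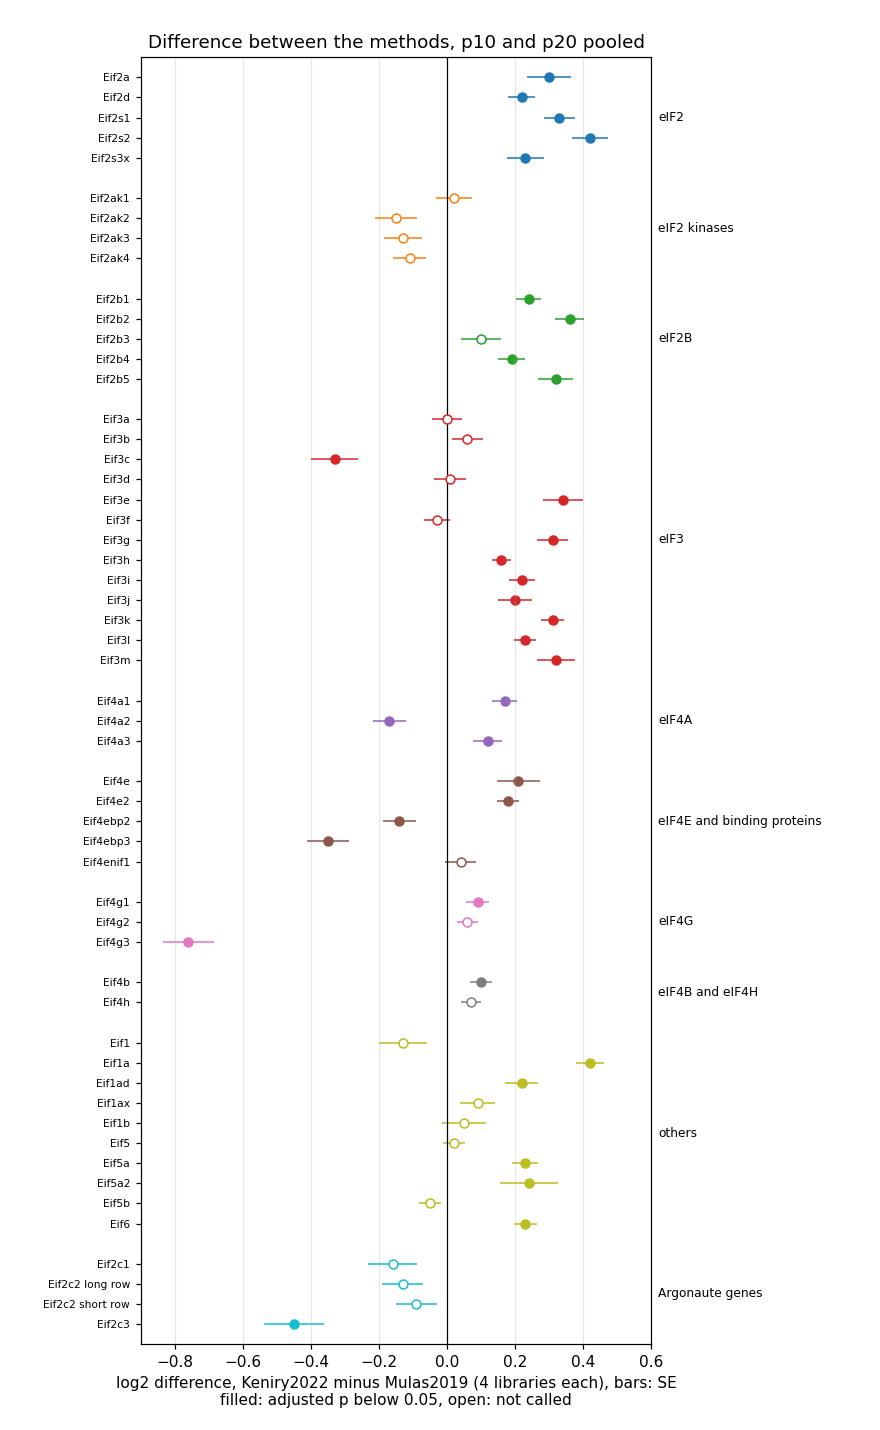
Log2 difference between the methods (Keniry2022 minus Mulas2019, p10 and p20 pooled, 4 libraries each) for the 54 tested rows by complex, with SE as bars, filled points for adjusted p below 0.05 and open points otherwise. All eIF2 rows lie right of 0, and Eif4g3 at -0.76 lies farthest to the left.

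Of the 5 eIF2 rows, 5 were higher under Keniry2022, with a median log2 difference of 0.30. Over all features 25.9% were higher, and 45.9% of those whose mean log2 value reached 4. The rows comprise the 3 subunits, Eif2s1 (alpha, the phosphorylated one), Eif2s2 (beta) and the X-linked Eif2s3x (gamma, which holds GTP and the tRNA), and the tRNA-delivery factors Eif2a and Eif2d, which are separate proteins outside the trimer. Eif2s2 (chromosome 2, 154871410 to 154892935) had log2 values of 7.06, 6.92, 6.90 and 6.89 under Keniry2022 and 6.66, 6.46, 6.48 and 6.50 under Mulas2019. The methods did not overlap, and the difference was 0.42 ± 0.0536 (SE, n = 4 libraries per method, adjusted p = 0.000217), or 1.34-fold. Its p0 libraries, at 7.52 and 7.13, were higher than all others.

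Eif2s1 (chromosome 12, 78861819 to 78887010) had log2 values of 6.36, 6.33, 6.31 and 6.25 under Keniry2022, 6.08, 6.02, 5.89 and 5.95 under Mulas2019, and 6.62 and 6.39 at p0. The order was again p0, Keniry2022, Mulas2019 without overlap, and the methods differed by 0.33 ± 0.0449 (adjusted p = 0.000318). Eif2a differed by 0.30 ± 0.0641 (adjusted p = 0.00331) and Eif2d by 0.22 ± 0.0395 (adjusted p = 0.00135). Eif2a shares 72 exon bases with Serp1 on the opposite strand and Eif2d shares 78 with Rassf5, and reads there cannot be assigned because the strand setting of the counting is not given. The summed level of the 5 rows was 256 to 274 RPKM under Keniry2022, 197 to 219 under Mulas2019, and 340 and 282 at p0.

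The gamma subunit has an X-linked and a Y-linked gene in the mouse. In each of the 5 groups the level of the Y-linked gene differed widely between the 2 libraries. The X-linked Eif2s3x (chromosome X, 94188707 to 94212862) had log2 values of 3.49, 3.34, 3.48 and 3.45 in Keniry2022 libraries and 3.26, 3.28, 3.12 and 3.16 in Mulas2019 libraries, which gives a log2 difference of 0.23 ± 0.0544 (adjusted p = 0.00524) without overlap, and 2.83 and 3.68 at p0. Its Y-linked copy Eif2s3y, which the rule leaves out, had 26.7 RPKM in p0 replicate 2, 24.9 in p10 Keniry2022 replicate 2, 17.3 in p10 Mulas2019 replicate 2 and 13 in p20 Mulas2019 replicate 2. In the other replicates of these groups it had 0.748, 0.390, 0.218 and 0.026 RPKM. At p20 under Keniry2022 the numbers stood the other way, with 21.4 RPKM (2503 reads) in the library labelled replicate 1 and 0.155 RPKM (19 reads) in the library labelled replicate 2. The replicate numbers of this group may therefore not mark the same lines as in the other groups, which the labels do not settle.

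Together the X- and Y-linked genes gave 22 to 39.5 RPKM in the 5 libraries with many Y-linked reads and 7.87 to 11.6 RPKM in the other 5. The alpha subunit gene Eif2s1 showed no such split, with 62 to 83.7 RPKM in the former and 59.4 to 98.1 in the latter. Within each group of p10 and p20, Eif2s3x itself differed between the libraries with many and with few Y-linked reads by less than it differed between the methods. Reads that fit both copies may be split between them, since the handling of multiple alignments is not given. The window around the start of Eif2s3x was the only one among the members to hold TGATGNAA, the composite site bound by ATF4 with a C/EBP partner. It is shown in capitals, as read on the gene's strand (GRCm38.p6, RefSeq promoter windows of 250 bases before to 50 after the start, chrX:94212728-94212759, minus strand), and it is held by 2.00% of the windows of tested genes and 4.06% of all windows.
Eif2s3x: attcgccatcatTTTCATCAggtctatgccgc

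**Figure D3:**
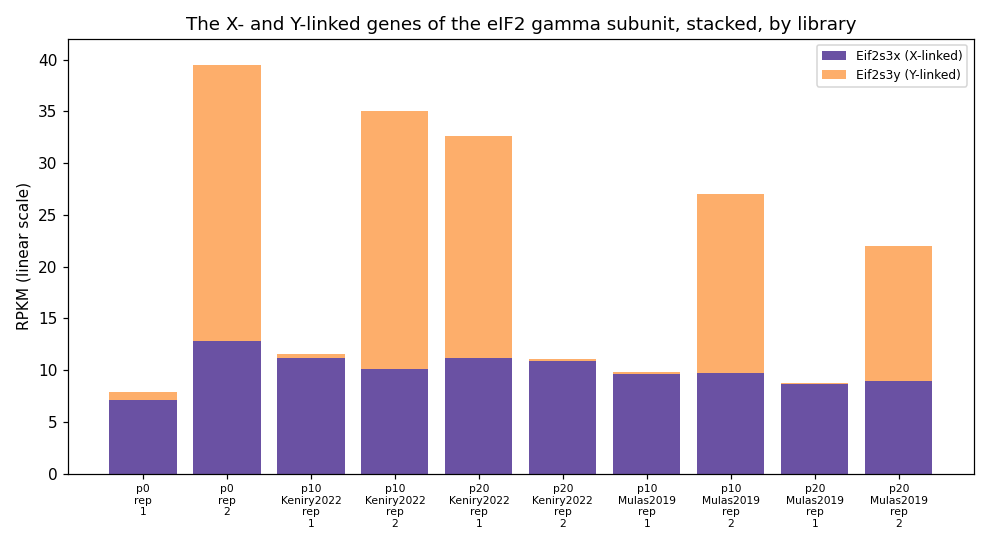
Stacked levels of Eif2s3x (X-linked) and Eif2s3y (Y-linked) in each library, in RPKM on a linear axis from 0. The 5 libraries with a Y-linked share reach 22 to 39.5 RPKM in total and the other 5 reach 7.87 to 11.6, and at p20 Keniry2022 the high library is the one labelled replicate 1.

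Of the kinases that phosphorylate eIF2, 0 of 4 were called in the pooled limma test, against 51.5% of all features. Their median log2 difference was -0.12, and 3 had an unadjusted p below 0.05. With voom 3 were called as lower, against 30.1% of all features. Eif2ak3, the endoplasmic reticulum kinase PERK, had 2.61, 2.63, 2.55 and 2.72 under Keniry2022 and 2.82, 2.73, 2.79 and 2.67 under Mulas2019, which overlap (difference -0.13 ± 0.0559, adjusted p = 0.0843). Eif2ak4, the amino-acid sensor GCN2, differed by -0.11 ± 0.0478 (adjusted p = 0.0687). Eif2ak2 differed by -0.15 ± 0.0622 (adjusted p = 0.0647) without overlap, and Eif2ak1 by 0.02 ± 0.0538 (adjusted p = 0.745).

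eIF2B, the exchange factor that reloads eIF2 with GTP, was higher under Keniry2022 in 4 of its 5 subunits, with a median log2 difference of 0.24. The background was 25.9% of all features, and 45.9% of those whose mean log2 value reached 4. Eif2b2, the beta subunit (chromosome 12, 85219481 to 85226628), had 5.0, 5.03, 4.99 and 4.89 against 4.57, 4.68, 4.65 and 4.59, a difference of 0.36 ± 0.0423 (adjusted p = 0.000151). Eif2b5, the catalytic epsilon subunit (chromosome 16, 20498817 to 20509955), had 7.16, 7.26, 7.20 and 7.28 against 6.79, 6.85, 7.0 and 6.97, a difference of 0.32 ± 0.0515 (adjusted p = 0.000721). Neither overlapped between the methods. Eif2b1 and Eif2b4 differed by 0.24 ± 0.0375 and 0.19 ± 0.0397 and were also called, whereas Eif2b3, the gamma subunit that pairs with epsilon, had 3.53, 3.45, 3.43 and 3.34 against 3.44, 3.38, 3.24 and 3.28 (difference 0.10 ± 0.0593, adjusted p = 0.177). Eif2b5 stood at 7.04 and 7.08 at p0, between the methods, and had the highest mean of the subunits on the length-scaled log2 RPKM scale, 7.06 against 5.16 for Eif2b4. With quantile normalisation 2 of the 5 were called, against 46% of all features, and Eif2b5 was not among them.

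The 13 subunits of eIF3 did not differ alike. Under Keniry2022, 8 were higher (61.5%), 1 was lower and 4 were not called, with a median log2 difference of 0.20, where 25.9% of all features and 59.2% of features with a mean log2 value of 6 or more were higher. With quantile normalisation 6 were higher (Eif3e, Eif3g, Eif3i, Eif3j, Eif3k and Eif3m) and 4 lower (Eif3a, Eif3c, Eif3d and Eif3f), and Eif3h fell to 0.00. The largest differences were 0.34 ± 0.0593 for Eif3e (adjusted p = 0.00114), 0.32 ± 0.0563 for Eif3m (adjusted p = 0.00109) and 0.31 ± 0.0454 for Eif3g (adjusted p = 0.000392), which encode a PCI-domain subunit, a second PCI-domain subunit and an RNA-binding subunit. Eif3k (chromosome 7, 28971373 to 28981814), a small peripheral subunit, had 8.55, 8.50, 8.46 and 8.44 under Keniry2022 and 8.21, 8.13, 8.19 and 8.19 under Mulas2019. Its difference was 0.31 ± 0.0349 (adjusted p = 0.000127) without overlap. Eif3l, its partner in the complex, differed by 0.23 ± 0.0319, Eif3i by 0.22 ± 0.0372, Eif3j by 0.20 ± 0.0492 and Eif3h by 0.16 ± 0.0278. Eif3j shares 1107 exon bases with Spg11 on the opposite strand and Eif3m shares 82 with Ccdc73.

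Eif3c was the only eIF3 gene called as lower on the deposited scale, with Eif3a (-0.13), Eif3d (-0.13) and Eif3f (-0.15) called as lower beside it after quantile normalisation. This subunit gene (chromosome 7, 126546912 to 126566366) had 7.70, 7.62, 7.71 and 7.78 under Keniry2022 and 8.20, 8.10, 7.94 and 7.87 under Mulas2019, without overlap, and 7.27 and 7.67 at p0. It was lower under Keniry2022 by -0.33 ± 0.0684 (adjusted p = 0.00302). On the deposited scale Eif3a, Eif3b, Eif3d and Eif3f had no called difference. Eif3a, the largest subunit, had 7.75, 7.79, 7.78 and 7.81 against 7.88, 7.83, 7.73 and 7.70, which overlap (-0.00 ± 0.0433, adjusted p = 0.962), and Eif3b and Eif3d, the cap-binding subunit, differed by 0.06 ± 0.0457 and 0.01 ± 0.0469. Eif3f differed by -0.03 ± 0.0382. Summed over its subunits, eIF3 gave 2008 to 2059 RPKM under Keniry2022 and 1819 to 1966 under Mulas2019. A pseudogene row of the Eif3e family (Eif3s6-ps2, 219 exon bases) was at log2 7.37 to 8.47, so that reads may be split between it and Eif3e.

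Promoter windows were matched for 46 of the 58 rows, and 10 of them belong to eIF3. CCGGAAG, the core of the site bound by ETS-family factors such as GABPA, was the motif most often found, on either strand, in 15 of the 46 windows (32.6%), against 19.8% of the windows of tested genes and 9.12% of all windows. No searched motif contains another. It occurred in 5 of the 10 eIF3 windows, and these are shown because the genes cover every class of call, higher for Eif3g, Eif3l and Eif3m, lower for Eif3c and not called for Eif3d. The capitals mark the motif on the gene's strand (GRCm38.p6, RefSeq). The stretches lie at chr9:20898616-20898646 (minus), chr15:79075176-79075206 (plus), chr2:105017064-105017094 (minus), chr7:126566382-126566412 (minus, the nearer of 2 matches to the start) and chr15:77970876-77970906 (minus).
Eif3g: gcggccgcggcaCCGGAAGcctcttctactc
Eif3l: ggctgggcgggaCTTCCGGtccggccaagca
Eif3m: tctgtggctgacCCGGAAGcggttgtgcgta
Eif3c: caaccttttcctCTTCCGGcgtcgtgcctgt
Eif3d: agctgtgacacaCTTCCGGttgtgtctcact

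Among the members called as higher with a window, 8 of 23 held CCGGAAG. The other motifs searched were CACGTG, the E-box bound by Myc and Max (8 of 46 windows, 17.4%, against 11.0% of tested genes), the palindromic NRF1 motif (7 windows, 15.2%, against 14.9%), and CTTTCC (11 windows, 23.9%, against 25.9%). A run of C and at least 4 more pyrimidines at the annotated start, the form of terminal oligopyrimidine mRNAs, was present in 3 windows (6.52%). It was held by 2.32% of the windows of tested genes and 2.49% of all windows. The 3 were those of Eif2s3x, Eif3f and Eif2c5, the last an Argonaute row with 0 to 2 reads that was not tested. E-boxes stood upstream of Eif4a1 and Eif4g1, a helicase gene and a scaffold gene of the cap complex. They are shown here for these genes (chr11:69672595-69672624, minus, and chr16:20672661-20672690, plus). A match describes letters and says nothing of binding.
Eif4a1: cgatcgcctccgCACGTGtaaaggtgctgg
Eif4g1: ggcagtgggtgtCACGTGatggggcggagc

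The eIF4 genes were split between directions. Of 13 tested rows, 6 were higher (46.2%) and 4 lower (30.8%) under Keniry2022, with a median log2 difference of 0.07, against 25.9% and 25.5% of all features. Among features whose mean log2 value reached 4, 45.9% were higher and 14.1% lower, so the share of higher rows was near that background. With quantile normalisation 1 was higher (Eif4e2) and 6 were lower (Eif4a2, Eif4ebp2, Eif4ebp3, Eif4g2, Eif4g3 and Eif4h), against 23.1% and 22.9%. The largest difference of any member was that of Eif4g3 (chromosome 4, 137993022 to 138208508), a paralogue of the scaffold eIF4G1. It had 2.03, 1.95, 2.22 and 2.02 under Keniry2022 and 2.88, 2.67, 2.79 and 2.91 under Mulas2019. The methods did not overlap, and the difference was -0.76 ± 0.0747 (adjusted p = 6.92e-05), or 1.69-fold higher under Mulas2019. At p0 it had 1.78 and 2.05, near the Keniry2022 libraries.

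Eif4g1, with a mean level of 7.12 log2 RPKM against 2.33 for Eif4g3, had 7.24, 7.28, 7.21 and 7.31 under Keniry2022 and 7.14, 7.22, 7.17 and 7.16 under Mulas2019, which overlap. Its difference of 0.09 ± 0.0336 was called (adjusted p = 0.043), but it turned to -0.06 with quantile normalisation. Eif4g2, a scaffold without the eIF4E site, differed by 0.06 ± 0.0314 (adjusted p = 0.155). The log2 ratio of Eif4g1 to Eif4g3 averaged 5.21 ± 0.151 (SD) over 4 Keniry2022 libraries and 4.36 ± 0.138 over 4 Mulas2019 libraries. This difference of 0.85 had an exact permutation p of 0.0286, the smallest that 4 against 4 libraries allow, and 0.0857 after adjustment over 9 gene pairs. These were paralogues, except for Eif4ebp2 with Eif4e and Eif2s1 with Eif2a. The permutation took all 8 libraries as exchangeable, although they are 2 lines at 2 passages per method.

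The helicase paralogues differed in opposite directions on the deposited scale, and with quantile normalisation Eif4a1 lost its call at 0.05 (adjusted p = 0.304) while Eif4a2 was lower by -0.29. Eif4a1 (chromosome 11, 69666936 to 69672423) had 5.93, 5.87, 5.79 and 5.87 under Keniry2022 and 5.70, 5.71, 5.65 and 5.71 in Mulas2019 libraries, which differ by 0.17 ± 0.0366 (adjusted p = 0.00335) without overlap. Eif4a2 (chromosome 16, 23107444 to 23114136) had 6.44, 6.42, 6.48 and 6.42 against 6.65, 6.46, 6.64 and 6.69, with overlap of single libraries, and differed by -0.17 ± 0.0488 (adjusted p = 0.0144). It shares 194 exon bases with Rfc4 on the opposite strand. The log2 ratio of Eif4a1 to Eif4a2 was -0.57 ± 0.0755 under Keniry2022 and -0.92 ± 0.115 under Mulas2019, which differ by 0.34 (exact permutation p = 0.0286, adjusted 0.0857). At p0 Eif4a2 had 6.77 and 6.93, above all later libraries, while Eif4a1 had 6.64 and 5.90, the latter within the Keniry2022 values. Eif4a3, which belongs to the exon junction complex, differed by 0.12 ± 0.0423 (adjusted p = 0.0407) with overlap.

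The cap-binding gene Eif4e and 2 of its repressor genes differed in opposite directions, but the call of Eif4e was lost with quantile normalisation at 0.11 (adjusted p = 0.169), with no filter and in the model of all 10 libraries. Eif4e had 5.69, 5.71, 5.85 and 5.65 under Keniry2022 and 5.44, 5.46, 5.45 and 5.69 in Mulas2019 libraries, which differ by 0.21 ± 0.0638 (adjusted p = 0.0174) with overlap. Eif4e2, a cap-binding protein linked to repression, differed by 0.18 ± 0.0327 (adjusted p = 0.00128). The eIF4E-binding repressors Eif4ebp3, with 3.01, 3.08, 3.21 and 3.22 against 3.58, 3.40, 3.46 and 3.47, and Eif4ebp2, with 5.81, 5.89, 5.84 and 5.92 against 5.99, 6.13, 5.98 and 5.91, were lower under Keniry2022 by -0.35 ± 0.0614 (adjusted p = 0.00117) and -0.14 ± 0.0483 (adjusted p = 0.0362). The values of Eif4ebp3 did not overlap between the methods and those of Eif4ebp2 did. Eif4ebp1, outside the rule and the most abundant repressor gene at log2 8.02 to 8.90, differed by 0.08 (adjusted p = 0.232). The log2 ratio of Eif4ebp2 to Eif4e was 0.14 ± 0.117 and 0.49 ± 0.193 (exact permutation p = 0.0571, adjusted 0.129). Eif4enif1, the nuclear import factor of eIF4E, differed by 0.04 ± 0.0453. The helicase cofactors Eif4b and Eif4h differed by 0.10 ± 0.0316 (adjusted p = 0.0253) and 0.07 ± 0.0287 (adjusted p = 0.0739), and the former turned to -0.04 with quantile normalisation.

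**Figure D4:**
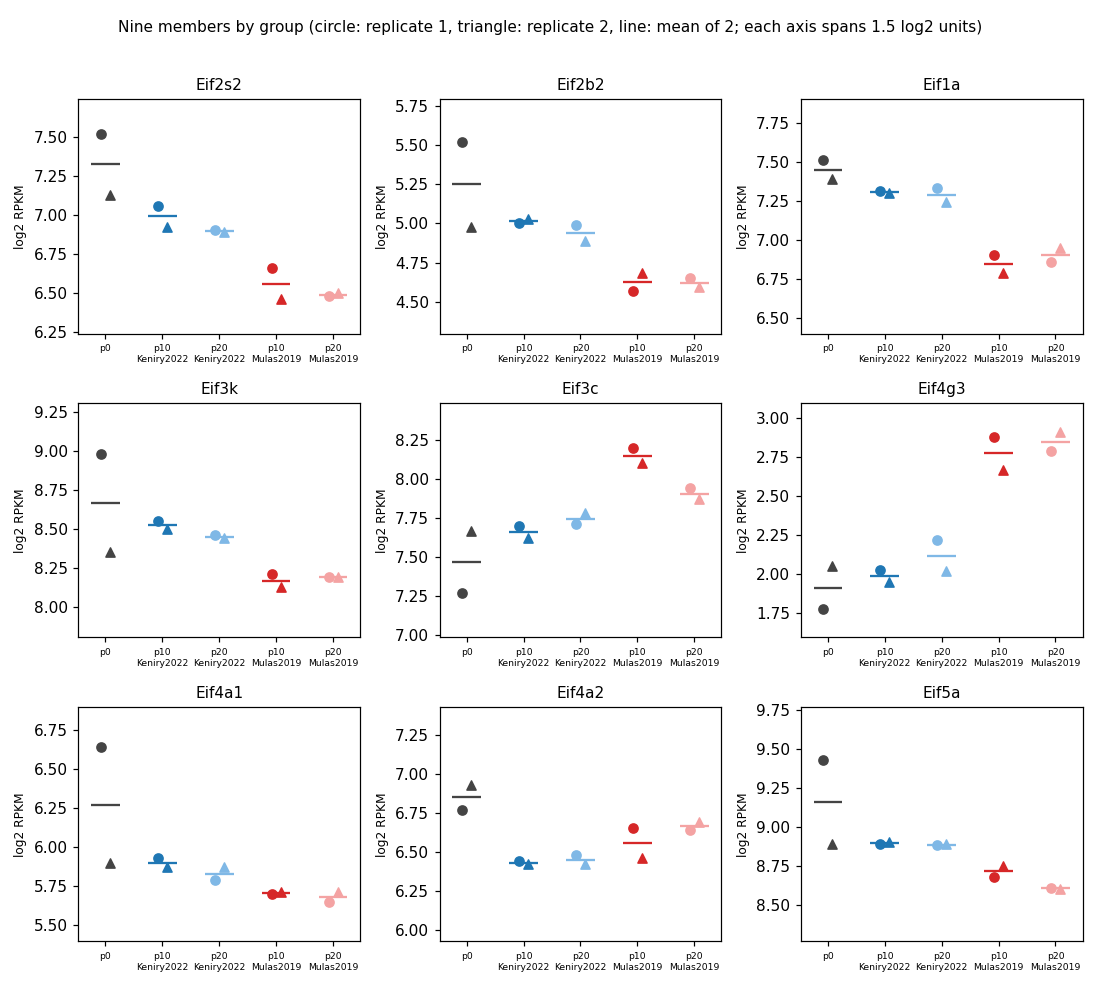
Log2 RPKM of 9 members in each library by group, with circles for replicate 1, triangles for replicate 2 and lines for the mean of 2 libraries, each panel spanning the same range. Eif2s2, Eif2b2, Eif1a and Eif3k lie lower under Mulas2019 than under Keniry2022 at both passages, while Eif3c and Eif4g3 lie higher.

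Of the remaining 10 factors, 5 were higher under Keniry2022 (50%), 0 were lower and 5 were not called, against 25.9% and 25.5% of all features. Features whose mean log2 value reached 4 were higher in 45.9% and lower in 14.1%, so the share of higher factors was near that background. With quantile normalisation 3 were higher (Eif1a, Eif5a2 and Eif6) and 3 lower (Eif1 at -0.22, Eif5 at -0.13 and Eif5b at -0.13), and Eif5a lost its call at 0.08 (adjusted p = 0.0636). Eif1a, an autosomal gene of the scanning factor eIF1A, had the smallest p of all members. It had 7.31, 7.30, 7.33 and 7.24 under Keniry2022 and 6.90, 6.79, 6.86 and 6.95 under Mulas2019, without overlap, and thus differed by 0.42 ± 0.0403 (adjusted p = 6.06e-05) or 1.34-fold, and 7.51 and 7.39 at p0. Its X-linked paralogue Eif1ax had 4.62, 4.62, 4.77 and 4.66 against 4.68, 4.57, 4.47 and 4.59, which overlap (0.09 ± 0.0512, adjusted p = 0.167). The log2 ratio of Eif1a to Eif1ax was 2.63 ± 0.0644 against 2.30 ± 0.0847 (exact permutation p = 0.0286, adjusted 0.0857).

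Eif5a (chromosome 11, 69916714 to 69921958) had 8.89, 8.90, 8.88 and 8.89 under Keniry2022 and 8.68, 8.75, 8.61 and 8.60 in Mulas2019 libraries, which differ by 0.23 ± 0.0385 (adjusted p = 0.000832). Its paralogue Eif5a2, at a mean of 2.40, differed by 0.24 ± 0.0851 (adjusted p = 0.0369) with overlap. Eif6, which keeps the large ribosomal subunit from joining too early, had 5.87, 5.87, 5.86 and 5.89 against 5.65, 5.69, 5.65 and 5.58, a difference of 0.23 ± 0.0331 (adjusted p = 0.000378). Neither Eif5a nor Eif6 overlapped between the methods. Eif1ad, an eIF1A-domain protein, differed by 0.22 ± 0.0483 (adjusted p = 0.00401).

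Eif1, Eif1b, Eif5 and Eif5b had no called difference. Eif1, which guards start codon choice, had 5.16, 5.18, 5.14 and 5.19 under Keniry2022 and 5.52, 5.33, 5.18 and 5.17 under Mulas2019, with the p10 Mulas2019 libraries highest (-0.13 ± 0.0703, adjusted p = 0.134). Eif1b differed by 0.05 ± 0.0655, Eif5, the GTPase activator of eIF2, by 0.02 ± 0.0319, and Eif5b, the subunit-joining GTPase, by -0.05 ± 0.0325 (adjusted p = 0.262). Eif5b shares 1643 exon bases with Rev1 on the opposite strand. The remaining pairs were Eif4g1 to Eif4g2, Eif4e to Eif4e2, Eif1 to Eif1b, Eif5a to Eif5a2 and Eif2s1 to Eif2a, the last not paralogues. Their ratios differed between the methods by -0.18 to 0.03 with exact permutation p of 0.171 to 0.943.

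Of the 4 tested Argonaute rows, 0 were higher and 1 was lower, against 25.9% and 25.5% of all features, with a median log2 difference of -0.15. Eif2c3 (the present Ago3) had 0.34, 0.45, 0.37 and 0.56 under Keniry2022 and 0.84, 0.87, 0.91 and 0.89 under Mulas2019 without overlap (-0.45 ± 0.0883, adjusted p = 0.00219). Eif2c1 (Ago1) differed by -0.16 ± 0.0713 (adjusted p = 0.0815). Eif2c2 (Ago2) has a long row of 10957 bases and a short row of 841 bases, which shares 219 bases with Chrac1 on the opposite strand. They differed by -0.13 ± 0.0606 and -0.09 ± 0.0609 and were not called on the deposited scale. With voom Eif2c3, Eif2c1 (-0.19) and the long row (-0.16) were called as lower, against 30.1% of all features. Quantile normalisation called Eif2c3 and the long row (-0.21) as lower, against 22.9%. In p0 replicate 1 the long row lay 1.96 below replicate 2 and the short row 0.96 above it. Without the Argonaute rows the initiation factors had 28 higher (56%) and 5 lower (10%) of 50, with a median of 0.14. Of features whose mean log2 value reached 4, 45.9% were higher and 14.1% lower.

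Genes that act beside the initiation factors, from lists of related functions, were counted in the same comparison, in which 25.9% of all features were higher and 25.5% lower, and 45.9% and 14.1% of those whose mean log2 value reached 4. Of 14 tested elongation genes, 8 were higher (57.1%) and 1 was lower with a median log2 difference of 0.19, led by the exchange-factor subunits Eef1d at 0.38 and Eef1b2 at 0.31 and by Dohh, the enzyme that completes the hypusine of eIF5A, at 0.30. The lower gene was Eef2, the translocase, at -0.17. Of 8 termination and recycling genes, 4 were higher (50%) and 0 lower with a median of 0.14, led by the recycling factor Abce1 at 0.30 and the release-factor gene Gspt1 at 0.25. Of 26 regulators and partners, 10 were higher (38.5%) and 4 were lower (15.4%) with a median of 0.07. Bzw1, an eIF5 mimic, was highest at 0.37. The lower genes were Ppp1r15a (-0.42, adjusted p = 0.00472) and Ppp1r15b (-0.23), which target a phosphatase to eIF2 alpha, Gcn1l1 (-0.24), an activator of GCN2, and Mtor (-0.18), the kinase that phosphorylates the eIF4E-binding proteins.

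The comparison at single passages asked whether the difference was present at both. In the model of all 10 libraries, 3 members were called at p10 (2 higher and 1 lower, against 8.53% of all features, 3.76% as higher and 4.77% as lower), Eif1a at 0.46, Eif2b5 at 0.39 and Eif4g3 at -0.79. At p20, 1 was called as lower, Eif4g3 at -0.73 (adjusted p = 0.0415), against 2.15% of features (0.614% higher, 1.54% lower). Between p20 Keniry2022 and p10 Mulas2019, matched in days, 4 were called against 6.43% of features (2.84% higher, 3.59% lower), with Eif1a at 0.44, Eif2a at 0.43, Eif2b5 at 0.42 and Eif4g3 at -0.66. The p0 libraries enter the estimate of the spread in this model. Without both of them, an alternative chosen after seeing the data, 31 members were called at p10 (24 higher and 7 lower, background 48.3%, of which 24.8% higher and 23.5% lower), 30 at p20 (24 and 6, background 36.7%, 18.6% and 18.2%) and 30 when matched in days (23 and 7, background 43.4%, 22.7% and 20.7%). The calls at p10 and p20 shared 26 members, 26 of them in the same direction, which is 83.9% of those at p10 and 86.7% of those at p20.

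In that fit, Eif2s2 differed by 0.43 ± 0.0695 at p10 and 0.41 ± 0.0695 at p20, Eif1a by 0.46 ± 0.0547 and 0.39 ± 0.0547, and Eif2s1 by 0.29 ± 0.0443 and 0.36 ± 0.0443. Eif3c differed by -0.49 ± 0.0518 at p10 and -0.16 ± 0.0518 at p20. The interaction of method and passage was called for 0 of 54 members and for 0.00% of all features in limma, with 0 members at an unadjusted p below 0.05, and voom called 0. Without p0 the background was again 0.00%, and Eif3c, Eif1 and Eif3a, singled out here after their values were seen, were the 3 members at an unadjusted p below 0.05. The interaction of Eif3c was 0.33 ± 0.0732 (adjusted p = 0.113). From p10 to p20 within a method, 0 members were called under Keniry2022 and 0 under Mulas2019 (background 0.00% each), with 0 at an unadjusted p below 0.05 in either and 0 called by voom. Without p0 the calls were again 0 and 0 (background 0.0343% and 2.47%), with 3 and 12 members at an unadjusted p below 0.05.

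**Figure D5:**
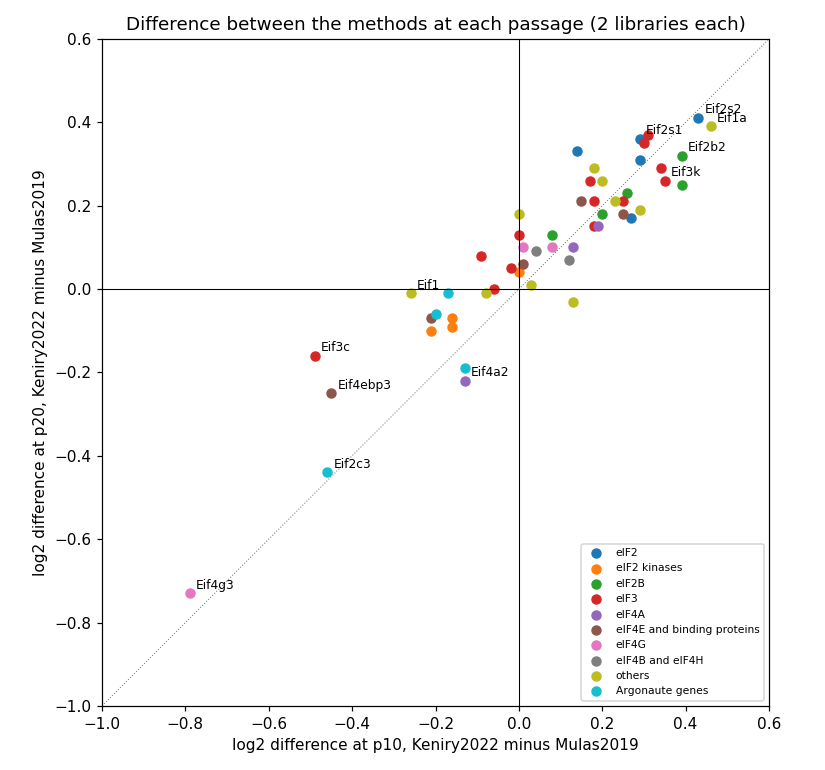
Log2 difference between the methods at p10 (horizontal) and p20 (vertical), each from 2 libraries per method in the fit without p0, for the 54 tested members by complex, with equality as a dotted line. Eif4g3 lies at -0.79 and -0.73, Eif2s2 at 0.43 and 0.41, and Eif3c at -0.49 and -0.16.

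The last comparison was with the starting cells. Under Keniry2022, 0 members differed from p0 at p10 and 0 at p20 (background 0.199% each) in limma, with 10 and 14 at an unadjusted p below 0.05 and 0 called by voom. Under Mulas2019, 18 members differed from p0 at p10, 5 higher and 13 lower, against 33.0% of all features (15.7% higher, 17.3% lower), and 16 differed at p20, 4 higher and 12 lower, against 29.3% (14.7% and 14.6%). The called shares of members, 33.3% and 29.6%, were close to those of all features. With quantile normalisation the split was 10 higher and 8 lower at p10 (background 16% and 16.7%) and 9 and 8 at p20 (13.2% and 14.3%). Library weights left 0 calls at either passage. All of these comparisons share the p0 libraries, so their values are given side by side. Lower than p0 at p10 and at p20 were Eif1a at -0.61 and -0.55, Eif2s1 at -0.45 and -0.58, Eif2s2 at -0.76 and -0.84, Eif2b2 at -0.62 and -0.63, Eif3e at -1.02 and -1.05, Eif3m at -0.75 and -0.85, Eif3h at -0.40 and -0.37 and Eif5a2 at -0.60 and -0.59. Higher than at p0 were Eif3c at 0.68 and 0.43, Eif4g3 at 0.86 and 0.93, Eif2c1 at 0.73 and 0.95 and Eif2c3 at 1.20 and 1.24.

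At p10 alone, Eif1b (-0.55), Eif2a (-0.34), Eif2b1 (-0.31), Eif4a2 (-0.29) and Eif2b5 (-0.24) were lower than at p0 and Eif4ebp2 (0.59) was higher. At p20 alone, Eif5a (-0.56), Eif3i (-0.49), Eif3g (-0.42) and Eif2b3 (-0.39) were lower. Whether these differ between the passages was tested only by the comparison of p20 with p10, in which 0 members were called.

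These counts depended on which p0 library was used. Without p0 replicate 1, which leaves a single p0 library whose spread is taken to be that of the other groups, 2 members differed under Keniry2022 at p10, Eif4a2 at -0.50 and Eif2d at 0.29, and 2 at p20, Eif4a2 at -0.48 and Eif2c1 at 0.37. The background was then 5.23% and 4.61%. Under Mulas2019, 28 members differed at p10 (10 higher and 18 lower, background 40.5%, 19.8% and 20.6%) and 23 at p20 (6 and 17, background 37.5%, 18.8% and 18.7%). Among them were Eif2s2 at -0.57 and -0.64, Eif3e at -0.60 and -0.63, Eif2s3x at -0.41 and -0.54, Eif1a at -0.54 and -0.49 and Eif4g3 at 0.72 and 0.79. Without p0 replicate 2, 41 and 42 members differed from p0 under Keniry2022, against a background of 64.3% and 66.5%, and 48 and 45 under Mulas2019, against 71.8% and 71.1%. Without any other library fewer members were called under Mulas2019 than with all 10 libraries, and the share of all features called fell as well. Each such fit leaves a group with a single library.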

How the data were processed

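Expression was measured by RNA-seq in 10 mESC libraries. The authors deposited log2 values for 25965 features. Per the study, reads were trimmed, aligned to mm10 with HISAT2 and quantified with SeqMonk. TopHat2 2.0.12 and bcl2fastq appear in the submitters' processing notes, so the aligner is not settled. For annotation release, strand setting and multiple alignments, nothing is stated in those sources. The deposited log2 values are named CPM but are log2 RPKM with 0 reads entered as 0.9 reads, as the floor of features without reads falls with exon length. Library totals, exon lengths and reads were recovered from these, and 100% of values were whole within 0.1 reads. For 4420 features more than 1 length was possible. Intervals on reads cover counting error only, and 0 columns of values were unused.

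Tests used limma 3.58.1 in R 4.3.3 (moderated test with an intensity trend, two-sided, Benjamini-Hochberg over all features, threshold 0.05). The methods were compared over 8 libraries, which are 2 lines at 2 passages per method, without a block. Other comparisons used 1 model of 10 libraries and 5 groups. The limma trend took the place of the authors' voom because the deposited values are log2. No pseudocount was added beyond the floor. Ratios of gene pairs, most of them paralogues, were compared by two-sided exact permutation tests. The fit was tested on simulated data.

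Members, gene lists and motifs were chosen with earlier results of these data known. Chosen to be named were up to 3 called members per complex and direction with the largest difference, members called at both passages or against p0, gene pairs and key factors. Values by library are printed for some of these, and for Eif3k, which was outside this choice. Other members are given by their difference. Exons were compared with GENCODE (GRCm38). Alternatives were stricter and no filters, quantile normalisation, median centring, voom on recovered reads, library weights, a replicate block, passage as a term, and leaving out libraries. Protein sequences were not analysed here.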

Additional observations from a re-analysis of the deposited data

Results flagged for a closer look

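In 5 of 76 groups of 4 libraries (38 named members, 2 methods), 1 library lay far from the other 3, by Dixon's criterion, which chance meets in about 1 of 20 groups. Eif2a was 4.91 in p20 Mulas2019 replicate 2, with the other Mulas2019 libraries at 4.67 to 4.68, and Eif4e was 5.69 in the same library, with the others at 5.44 to 5.46. In p10 Mulas2019 replicate 1, Eif2b1 was 4.51 (others 4.59 to 4.60) and Eif3m was 5.26 (others 5.07 to 5.08). Eif2s2 was 7.06 in p10 Keniry2022 replicate 1, with the others at 6.89 to 6.92. All values are log2 RPKM. Eif2a, Eif2b1, Eif2s2, Eif3m and Eif4e remained called in the pooled comparison without each of these libraries in turn.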

How the results depend on the processing

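In the pooled comparison, 34 members were called (51.5% of all features), and 29 to 34 without each library in turn (24 to 27 higher and 5 to 8 lower). Those fits called 43.6% to 49.3% of all features. Under the filters, scalings, voom, weights, block and passage term 31 to 36 members were called, against 24.2% to 54.9% of all features. The model of all 10 libraries called 11 (9 higher, 2 lower, with 19.2% of all features). This model takes in the spread of p0, and the part of that spread in the lower count was not tested. Eif1a, Eif2a, Eif2b1, Eif2s1, Eif2s2, Eif3c, Eif3g and Eif4g3 were called under all 18 alternatives. Eif4a3, Eif4g1, Eif4ebp2, Eif5a2 and Eif4b lost their calls under 11, 10, 9, 9 and 7 of them. Signs turned with quantile normalisation for Eif4b (-0.04), Eif4g1 (-0.06), Eif4g2 (-0.11) and Eif5 (-0.13), with voom for Eif5 (-0.01), and for Eif3a with median centring and with library weights (0.01 each) and without single libraries (-0.03 to 0.03). Quantile normalisation moved the log2 ratio of Eif4g1 to Eif4g3 to 0.63 and that of Eif5a to Eif5a2 to -0.24. Without single libraries, the differences in log2 ratio were 0.81 to 0.92 for Eif4g1 to Eif4g3, 0.32 to 0.40 for Eif4a1 to Eif4a2 and 0.31 to 0.36 for Eif1a to Eif1ax.

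In the comparisons of the methods at p10, at p20 and with days matched, library weights called 32, 27 and 27 members (50.9%, 35.3% and 40.0% of all features), the fit without p0 31, 30 and 30 (48.3%, 36.7% and 43.4%), and quantile normalisation 1, 1 and 1 (9.85%, 2.06% and 6.66%). With no filter 3, 0 and 2 were called (4.01%, 1.46% and 3.02%), and with log2 above 2, 3, 0 and 3 (7.19%, 1.12% and 4.17%). Leaving out either p0 library raised the calls among the members and over all features alike. Leaving out any other library lowered the share of all features called and did not raise the calls among the members. The library left alone in its group is assumed to vary like the rest. Against p0, Mulas2019 had 7 and 9 calls at p10 and p20 with no filter (9.35% and 7.61% of all features) and 0 and 0 with library weights (0% each), and 0 to 48 and 0 to 45 without single libraries. Keniry2022 had 0 to 41 and 0 to 42. Library weights gave 1 call between p20 and p10 under Mulas2019 (4.43% of features). The cause was not tested.

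The replicate numbers did not pair the samples throughout. Deviations of same-numbered libraries correlated at 0.17 to 0.63 among 4 groups and at -0.70 to -0.12 between p20 Keniry2022 and these. The replicate block gave 33 calls pooled (49.3% of all features), 3 at p10 (6.18%), 0 at p20 (1.25%) and 2 with days matched (4.42%). For Mulas2019 against p0 it gave 13 and 13 at p10 and p20 (30.9% and 27.1%). With the p20 Keniry2022 numbers exchanged, chosen after seeing the data, the block gave 31, 3, 0 and 3 calls (49.6%, 6.73%, 1.35% and 4.84% of all features). Against p0 it then gave Mulas2019 14 and 13 calls (29.8% and 25.9%).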
